A study of Mus musculus with 61 samples.

Results

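Nuclei sorted as D2 were compared with nuclei sorted as D1 from the nucleus accumbens, or ventral striatum, of mice that had received saline only. The comparison took the 7 libraries labelled D2 SS and the 8 labelled D1 SS, 15 of 61 libraries in all. The mice were males that carried a Cre-dependent eGFP fused to the ribosomal protein L10a together with a D2-Cre or a D1-Cre driver. All had saline over 15 days, then 30 days in the home cage, then a saline challenge 1 h before they were killed. The other libraries came from mice given morphine instead of saline at the challenge (SM), over the repeated phase (MS) or at both (MM), and they enter below where a difference was looked for in other animals. Because each class of nucleus came from its own driver line, the class and the line cannot be told apart. Both drivers are transgenes built on a dopamine receptor gene, and reads of a transgene and of the endogenous locus cannot be told apart either. The labels do not say how many mice stand behind a library, so p values measure only the spread between libraries, which may be technical.

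Striatal projection neurons are inhibitory cells that fall into a class with the dopamine receptor D1, which couples to the stimulatory G proteins Gs and Golf, and a class with D2, which couples to inhibitory Gi proteins. D1 neurons are known for the peptide precursors prodynorphin and tachykinin and for the muscarinic receptor M4. D2 neurons are known for proenkephalin, the adenosine receptor of type 2A and the orphan receptor GPR6. Both classes share DARPP-32, phosphodiesterase 10A and the enzymes that make GABA. Total RNA of nuclei holds unspliced transcripts, and the gene lengths behind the deposited values were whole gene spans.

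Library totals were 16114716 to 21108769 counts in D2 and 16137826 to 25510099 in D1. A background level per kb was taken from 1464 receptor genes of the olfactory and vomeronasal epithelia, not expected to be active in the striatum. Extended to every gene in proportion to its length, it would account for 59.9 to 74.4% of counts in D2 (median 69.5%) and for 42.4 to 84.3% in 7 of the D1 libraries (median 66.5%). In D1 SS replicate 1 this share was 7.46%, the lowest of 61 libraries, where the next lowest was 33.1%. That library also had the lowest TMM scaling factor, 0.39, against 0.81 for the next lowest. Over the 15 libraries the background density was 0.51 ± 0.05 CPM per kb in D2 and 0.44 ± 0.19 in D1 (SD, n = 7 and 8). The difference did not pass (exact permutation p = 0.42, and 0.78 without D1 SS replicate 1). The mitochondrial share was 0.0132 ± 0.00374% in D2 and 0.0186 ± 0.00328% in D1 (SD, n = 7 and 8; two-sided exact permutation p = 0.014, 0.057 after adjustment over 4 library measures). Without D1 SS replicate 1 the D1 share was 0.0183 ± 0.0034% (SD, n = 7; exact permutation p = 0.025, adjusted 0.10). Since D1 SS replicate 1 stands apart, log2 fold changes of named genes under saline are given without it first and then with all libraries.

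The genes that separated D2 from D1 nuclei under saline were the dopamine receptor genes and their chromosomal neighbours, 2 peptide precursors and a few others. With edgeR's quasi-likelihood test and Benjamini-Hochberg adjustment, 15 of 42833 genes were called without D1 SS replicate 1, which is 0.035%, with 5 higher and 10 lower in D2. At an unadjusted p under 0.05 there were 1529. With all 15 libraries 20 of 42870 were called (0.0467%), 5 higher and 15 lower, and they included all 15 of these. At an unadjusted p under 0.05 there were 11971, of which 9353 were lower in D2. Of the 15 genes, 14 had no overlap between the 7 D2 and the 8 D1 libraries in CPM, here counts divided by the TMM-scaled library total; over all genes tested, 0.0653% had all D2 above all D1 and 0.042% all D2 below. The count with D1 SS replicate 1 in the fit was not stable. It came to 6023, 31, 7174 and 3615 when D1 SS replicates 2, 6, 7 or 8 were left out in its place, and DESeq2 size factors in edgeR gave 329 genes higher and 7912 lower. Counts scaled by the library total alone gave 13 higher and 11 lower. Without D1 SS replicate 1, size factors gave 5 higher and 9 lower.

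The receptor genes separated all D2 from all D1 libraries. Both drivers are transgenes built on a receptor gene, so this separation alone cannot check which nuclei were sorted. Drd2, the dopamine receptor D2 gene (mm10, chromosome 9, 49340627 to 49408177, plus strand), had 374, 567 and 861 CPM as lowest, median and highest values in D2 libraries, against 48.03, 72.6 and 135 CPM in the 7 other D1 libraries and 269.5 CPM in D1 SS replicate 1. The D2 values lay above all D1 values. Its log2 fold change of D2 over D1 was 2.99 ± 0.34 (SE; edgeR, adjusted p = 2.3e-08), and 2.61 ± 0.34 with all libraries (adjusted p = 8e-07). Drd1, the dopamine receptor D1 gene (chromosome 13, 54051183 to 54055705, minus strand), had 5.36, 9.18 and 11.4 CPM as lowest, median and highest values in D2 libraries, against 33.05, 53.2 and 79.9 CPM in the 7 other D1 libraries and 269 CPM in D1 SS replicate 1. All D2 values were below all D1 values, and D1 SS replicate 1 lay far above the other D1 libraries. The log2 fold change was -2.54 ± 0.32 (adjusted p = 5.3e-07) and -3.15 ± 0.38 with all libraries (adjusted p = 9.4e-08).

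The ratio of both receptors within a library does not depend on scaling between libraries. The log2 ratio of Drd2 to Drd1 counts was 5.84 to 6.55 in D2 libraries, against -0.15 to 0.97 in the 7 other D1 libraries and 0.00 in D1 SS replicate 1. The gene span is 67551 bases for Drd2 and 4523 for Drd1, so a ratio near 0 is not an equal level per length. Per kb, Drd2 stood at 19.9 times the background level in D2, against 2.61 times in the 7 D1 libraries. Drd1 stood at 4.14 times background in D2, against 25.2 times in D1. In D1 SS replicate 1, where the background was lowest, Drd1 was at 405 times background and Drd2 at 27.2 times. For Penk over Pdyn the log2 count ratio was 3.40 to 4.24 in D2 libraries, against -0.46 to 1.27 in the 7 other D1 libraries and -0.02 in D1 SS replicate 1, and the ranges did not overlap. In bulk samples such as these, fewer cells of a type and less RNA per cell cannot be told apart.

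**Figure D1:**
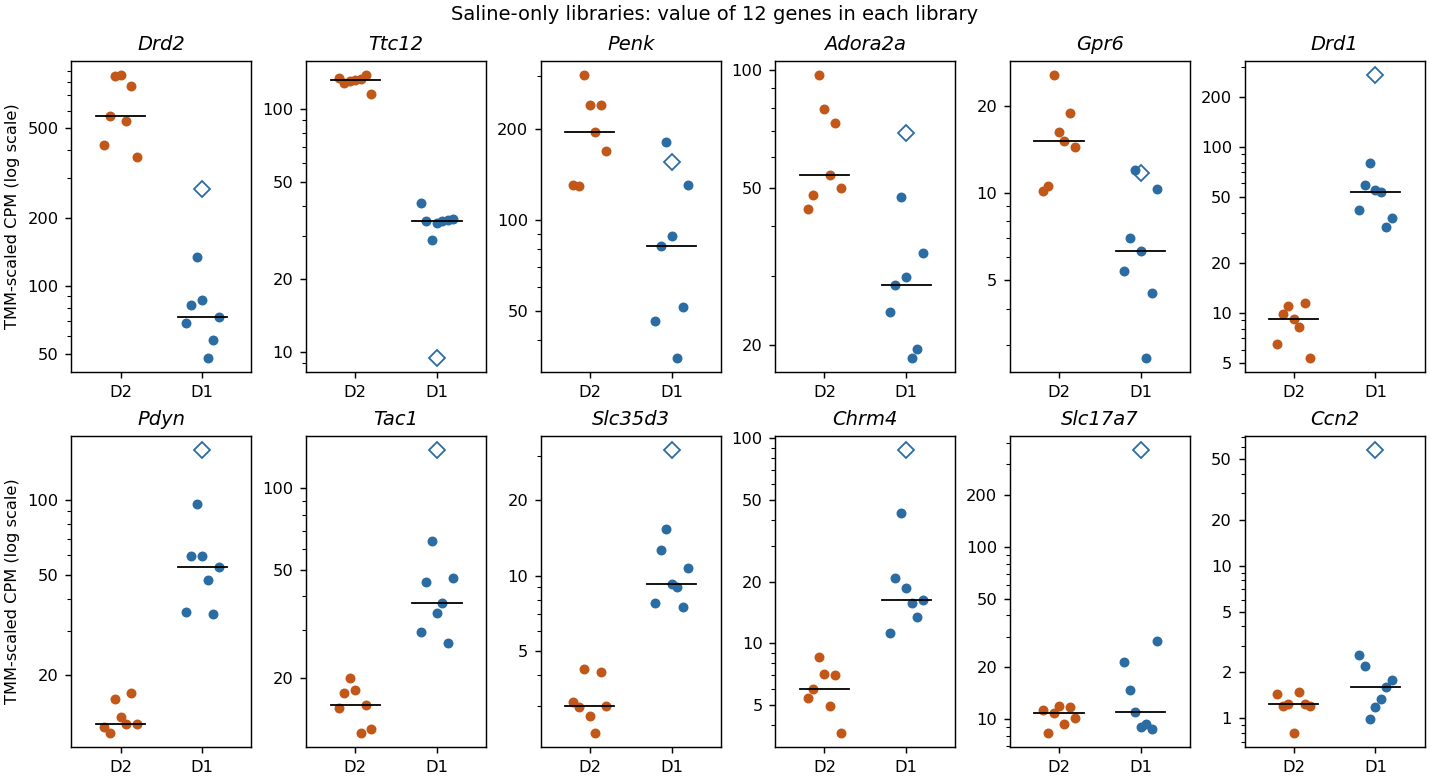
TMM-scaled CPM (log axis) of 12 genes in each saline-only library, with D2 libraries left and D1 libraries right; filled points are libraries, black lines the medians over the filled points (n = 7 each), and the open diamond is D1 SS replicate 1. Drd2 in D2 libraries sits at 374 to 861 CPM, above every D1 library, and the diamond is the highest D1 value in 9 of the 12 panels, among them Slc17a7 and Ccn2.

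Of 11 genes listed as markers of D1 neurons, 10 had a negative log2 fold change and 5 were called lower in D2, with a median of -1.34; over all genes tested the median was -0.01 and 0.0233% were called lower. With all libraries the median was -1.71 and 6 were called. Pdyn, the precursor of dynorphin peptides, had 11.7, 12.8 and 16.98 CPM as lowest, median and highest values in D2 libraries, against 34.95, 53.9 and 96.03 CPM in the 7 other D1 libraries and 158 CPM in D1 SS replicate 1. No D2 library reached a D1 library, and the log2 fold change was -2.02 ± 0.28 (edgeR, adjusted p = 5.8e-06; -2.31 ± 0.29 with all libraries). Tac1, the precursor of substance P, had 12.6, 15.9 and 20.1 CPM as lowest, median and highest values in D2 libraries, against 26.9, 37.7 and 64.2 CPM in the 7 other D1 libraries and 138 CPM in D1 SS replicate 1. Its groups did not overlap either, at -1.35 ± 0.28 (adjusted p = 0.048; -1.71 ± 0.31 and 0.002 with all libraries). Slc35d3, a member of the nucleotide sugar transporter family, had 2.35, 3.01 and 4.23 CPM as lowest, median and highest values in D2 libraries, against 7.52, 9.23 and 15.3 CPM in the 7 other D1 libraries and 31.7 CPM in D1 SS replicate 1. It was lower in D2 by a log2 fold change of -1.68 ± 0.30 (adjusted p = 0.002; -1.99 ± 0.31 and 0.00013 with all libraries). Sfxn1, a mitochondrial serine transporter whose gene lies beside Drd1, is described with the neighbours.

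Chrm4, which encodes the muscarinic receptor M4, had 3.66, 6.01 and 8.58 CPM as lowest, median and highest values in D2 libraries, against 11.2, 16.3 and 43.5 CPM in the 7 other D1 libraries and 87.6 CPM in D1 SS replicate 1. The groups did not overlap, yet the call was not stable. The log2 fold change was -1.71 ± 0.41 without D1 SS replicate 1 (adjusted p = 0.25) and -2.20 ± 0.44 with it (adjusted p = 0.013). With D1 SS replicate 1 kept, the call was also lost when D2 SS replicate 1, 5 or 7 was left out (adjusted p = 0.052, 0.054 and 0.073) and in the 15 saline libraries fitted alone (0.16). With the background density as a covariate and without D1 SS replicate 1 it was -1.54 (adjusted p = 3.8e-05). Isl1, a transcription factor of D1 neuron development, had 6.73 to 9.79 CPM in D2 (median 8.37) against 9.41 to 17.8 CPM in the 7 other D1 libraries (median 11.2) and 18.4 CPM in D1 SS replicate 1, and its difference of -0.52 ± 0.17 did not pass (adjusted p = 0.92; -0.60 ± 0.17 and 0.098 with all libraries). Dlk1, a membrane protein related to Notch ligands, had 8.15 to 14.5 CPM in D2 (median 10.3) against 11.7 to 44.9 CPM in the 7 other D1 libraries (median 20.7) and 22.4 CPM in D1 SS replicate 1, a difference of -1.18 ± 0.40 that did not pass (adjusted p = 0.92; -1.17 ± 0.37 and 0.098 with all libraries). The transcription factor genes Eya1, Ebf1 and Zfp521 had 0.04, -0.03 and -0.06, none of them called (0.13, 0.01 and -0.03 with all libraries), and Ebf1 and Zfp521 change sign with the scaling or the libraries. All 3 have long gene spans and stood at only 1.35 to 1.47 times background in D2 and 1.31 to 1.51 times in the 7 D1 libraries.

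Of 12 listed markers of D2 neurons 11 were measured, with 10 positive log2 fold changes, 3 called higher and a median of 1.14; 0.0117% of all genes were called higher. With all libraries the median was 0.92, with the same number called. Gpr52 was not analysed here. The 3 called were Drd2 and its neighbours Ttc12 and Ankk1, and no listed marker away from that locus was called in either fit. The D1 list likewise holds Sfxn1, a neighbour of Drd1. Both lists were chosen with earlier results of these data known, so their counts and medians are no independent support. Penk, the precursor of enkephalin peptides, had 129, 195 and 302 CPM as lowest, median and highest values in D2 libraries, against 34.9, 82.02 and 182 CPM in the 7 other D1 libraries and 155 CPM in D1 SS replicate 1. The ranges overlapped, and the log2 fold change of 1.19 ± 0.39 did not pass (adjusted p = 0.92; 1.06 ± 0.37 and 0.098 with all libraries). Penk overlaps the antisense model A830012C17Rik, and since the strand setting of the counting is not given, reads of the pair cannot be assigned with certainty. Per kb it stood at 81.6 times background in D2 against 37.3 times in the 7 D1 libraries.

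Adora2a, the adenosine receptor gene of type 2A, had 44.3, 54.2 and 96.8 CPM as lowest, median and highest values in D2 libraries, against 18.6, 28.4 and 47.5 CPM in the 7 other D1 libraries and 68.995 CPM in D1 SS replicate 1. The groups overlapped, and its log2 fold change was 1.14 ± 0.28 (adjusted p = 0.25; 0.92 ± 0.27 and 0.098 with all libraries). With the background covariate and without D1 SS replicate 1 it was 1.19 ± 0.20 and passed (adjusted p = 0.00048). Gpr6, an orphan receptor that raises cyclic AMP, had 10.2, 15.1 and 25.5 CPM as lowest, median and highest values in D2 libraries, against 2.71, 6.34 and 12.02 CPM in the 7 other D1 libraries and 11.7 CPM in D1 SS replicate 1. It did not pass at 1.20 ± 0.33 (adjusted p = 0.76; 1.09 ± 0.31 and 0.098 with all libraries) and passed with the covariate at 1.27 ± 0.27 (adjusted p = 0.039). The transcription factor genes Sp9 and Six3 had 0.24 and -0.09, Upb1, an enzyme of pyrimidine breakdown, had 0.26, and Plxdc1 had 0.23; none passed. With all libraries these 4 had 0.17, -0.39, 0.37 and 0.23, and none passed. Sp9, Six3 and Upb1 each overlap a gene model on the other strand, which makes their reads uncertain too. Grik3, a kainate receptor subunit gene, had 267 to 381 CPM in D2 (median 283) against 176 to 299 CPM in the 7 other D1 libraries (median 238) and 2292 CPM in D1 SS replicate 1. Its log2 fold change was 0.42 ± 0.18 without that library and -0.64 ± 0.32 with it, and neither passed.

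**Figure D2:**
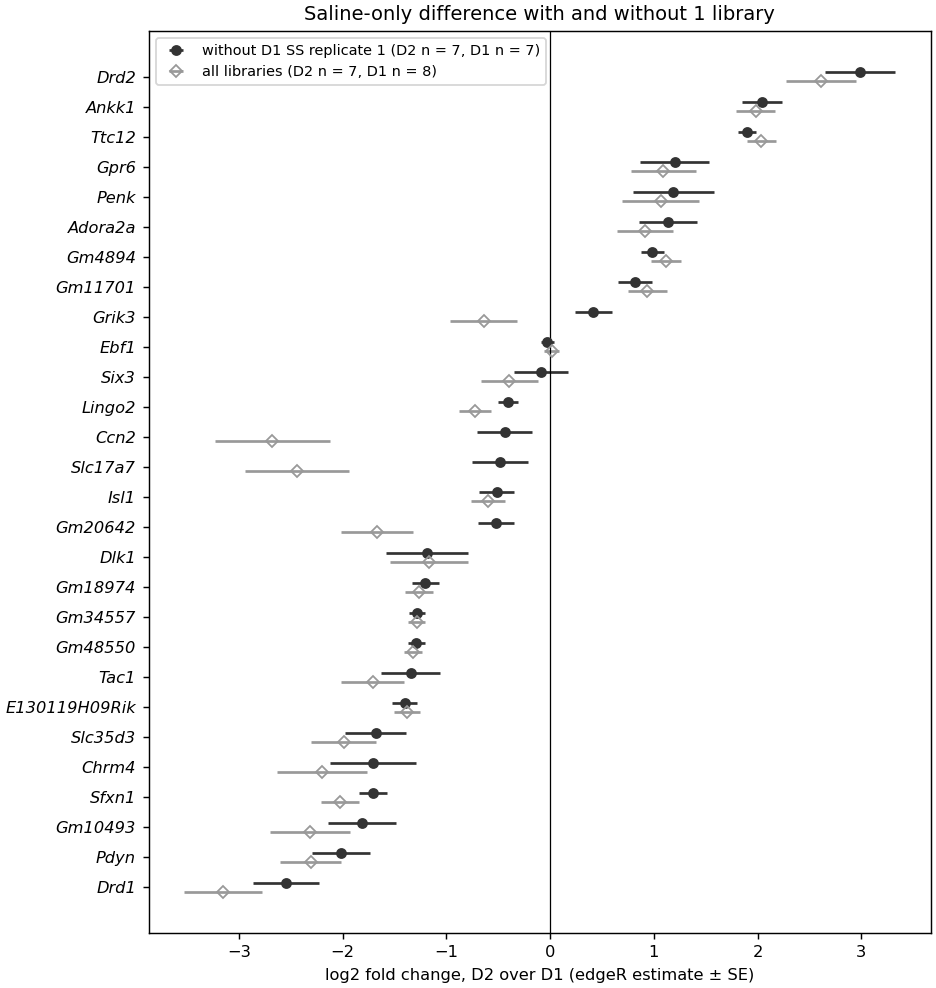
Log2 fold change of D2 over D1 (edgeR estimate, bars are SE) for the 20 called genes and 8 further markers, without D1 SS replicate 1 (filled) and with all libraries (open). Ccn2 and Slc17a7 are at -0.44 and -0.48 without that library and at -2.68 and -2.44 with it, while Ankk1 and Gm34557 are at 2.04 and -1.28 without it and at 1.98 and -1.29 with it.

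The start regions of 6 of the genes above are shown because they belong to genes listed as markers of either class, 5 of them called, and because cyclic AMP, which D1 and D2 receptors drive in opposite directions, is known to act through the element TGACGTCA or its half-site TGACG. The windows are the 250 bases before the RefSeq start (GRCm38.p6), written 5′ to 3′ on the gene's strand with each TGACG, on either strand, in capitals. They lie at chr9:49340153-49340402 on the plus strand for Drd2, chr10:41072291-41072540 on the minus strand for Gpr6, chr13:54055659-54055908 on the minus strand for Drd1, chr2:129699939-129700188 on the minus strand for Pdyn, chr6:7554811-7555060 on the plus strand for Tac1 and chr10:19851460-19851709 on the minus strand for Slc35d3.
Drd2: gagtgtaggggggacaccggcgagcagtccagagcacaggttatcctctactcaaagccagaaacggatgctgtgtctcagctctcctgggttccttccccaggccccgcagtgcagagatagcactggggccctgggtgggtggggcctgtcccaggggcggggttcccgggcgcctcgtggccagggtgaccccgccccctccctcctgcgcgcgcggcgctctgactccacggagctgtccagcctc
Gpr6: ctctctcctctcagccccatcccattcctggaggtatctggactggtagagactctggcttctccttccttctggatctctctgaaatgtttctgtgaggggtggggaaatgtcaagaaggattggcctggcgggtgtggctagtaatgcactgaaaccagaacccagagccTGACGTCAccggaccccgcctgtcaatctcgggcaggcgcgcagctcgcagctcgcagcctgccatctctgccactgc
Drd1: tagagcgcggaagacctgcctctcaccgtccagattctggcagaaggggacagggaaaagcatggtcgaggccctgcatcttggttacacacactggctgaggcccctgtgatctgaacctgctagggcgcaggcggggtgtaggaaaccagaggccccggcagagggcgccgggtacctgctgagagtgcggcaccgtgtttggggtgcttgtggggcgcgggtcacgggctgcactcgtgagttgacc
Pdyn: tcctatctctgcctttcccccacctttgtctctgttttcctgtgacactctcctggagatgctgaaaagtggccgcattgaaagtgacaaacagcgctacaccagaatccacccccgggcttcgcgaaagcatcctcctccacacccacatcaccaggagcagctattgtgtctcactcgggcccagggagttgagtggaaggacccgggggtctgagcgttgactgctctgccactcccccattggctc
Tac1: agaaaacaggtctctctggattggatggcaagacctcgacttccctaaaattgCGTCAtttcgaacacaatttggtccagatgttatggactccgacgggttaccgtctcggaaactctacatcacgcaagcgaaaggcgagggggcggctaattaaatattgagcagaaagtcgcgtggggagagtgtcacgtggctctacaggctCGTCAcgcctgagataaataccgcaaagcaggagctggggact
Slc35d3: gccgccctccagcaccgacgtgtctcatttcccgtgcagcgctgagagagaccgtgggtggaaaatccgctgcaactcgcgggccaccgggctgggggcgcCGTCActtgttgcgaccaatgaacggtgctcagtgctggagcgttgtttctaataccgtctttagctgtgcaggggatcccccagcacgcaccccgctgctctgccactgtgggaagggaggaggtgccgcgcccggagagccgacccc
The half-site was found in 3 of these 6 windows, in Gpr6 as the whole element, in Tac1 at 2 places and in Slc35d3 at 1. Among all 32851 windows of the table, 17.8% held the half-site on either strand and 1.55% held the whole element. Of 10 genes looked up in all, 4 held the half-site; among the 4 not printed it was found for Ttc12 and not for Chrm4, Sfxn1 and Oprd1. The windows of Drd2, Drd1 and Pdyn held neither, which says only that these letters are not in these 250 bases. Drd1 and Pdyn each had 2 RefSeq windows, and only the window nearest the GENCODE gene start was looked up.

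The 2 receptor loci each carried a run of neighbouring genes that differed in the same direction. Within 400 kb of Drd2 or Drd1, 26 genes were tested and 10 were called, with and without D1 SS replicate 1, where 0.0467% and 0.035% of all genes were called. Around Drd2 these were Drd2, Ankk1, a kinase gene, Ttc12, a gene of ciliary dynein assembly, and Gm4894, a predicted coding gene, all higher in D2. Ttc12 (chromosome 9, 49436963 to 49486225, minus strand) had 115, 131 and 138 CPM as lowest, median and highest values in D2 libraries, against 28.8, 34.7 and 41.03 CPM in the 7 other D1 libraries and 9.496 CPM in D1 SS replicate 1. The D2 libraries lay within a narrow band and every D1 library was far below it; the log2 fold change was 1.90 ± 0.09 (adjusted p = 1.8e-24; 2.04 ± 0.14 and 1.6e-17 with all libraries). Ankk1 had 33.3 to 59.4 CPM in D2 (median 50.001) against 9.199 to 16.9 CPM in the 7 other D1 libraries (median 11.4) and 16.2 CPM in D1 SS replicate 1, with no overlap, at 2.04 ± 0.19 (adjusted p = 4.8e-11; 1.98 ± 0.18 and 1.3e-11 with all libraries). Gm4894 had 36.4 to 43.5 CPM in D2 (median 40.9) against 13.2 to 22.9 CPM in the 7 other D1 libraries (median 21.3) and 6.16 CPM in D1 SS replicate 1, again with no overlap, at 0.99 ± 0.11 (adjusted p = 1.3e-08; 1.12 ± 0.14 and 6.1e-07 with all libraries). By midpoint the 4 genes lay from -75.1 to 121 kb from the Drd2 start. The next genes outward, Tmprss5 at -241 kb and Gm11149 at 205 kb, had 0.11 and -0.26 and were not called (0.21 and -0.83 with all libraries).

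Around Drd1 the called genes were Drd1, Sfxn1, the noncoding models Gm34557, Gm48550 and E130119H09Rik, and the pseudogene Gm18974, all lower in D2. Sfxn1 (chromosome 13, 54071869 to 54108342, plus strand) had 24.6, 27.7 and 30.3 CPM as lowest, median and highest values in D2 libraries, against 67.1, 82.9 and 121 CPM in the 7 other D1 libraries and 269 CPM in D1 SS replicate 1. The groups did not overlap, and the log2 fold change was -1.71 ± 0.14 (adjusted p = 3.9e-14; -2.03 ± 0.18 and 4.9e-12 with all libraries). Gm34557 had 10.8, 12.3 and 13.1 CPM as lowest, median and highest values in D2 libraries, against 25.8, 30.2 and 31.2 CPM in the 7 other D1 libraries and 30.5 CPM in D1 SS replicate 1. D1 SS replicate 1 lay among the other D1 libraries here, unlike at Drd1 and Sfxn1, and the log2 fold change was -1.28 ± 0.08 (adjusted p = 9.9e-19; -1.29 ± 0.08 and 7.5e-18 with all libraries). Gm48550, E130119H09Rik and Gm18974 had -1.29 ± 0.08, -1.40 ± 0.12 and -1.20 ± 0.13, each with no overlap between groups, and -1.32 ± 0.09, -1.38 ± 0.12 and -1.27 ± 0.14 with all libraries. The run went from -166 to 34.4 kb from the Drd1 start. Outside it, Gm48548 at -278 kb had -0.28 and Hrh2, a histamine receptor gene, at 158 kb had -0.05, and neither was called (-0.31 and -0.35 with all libraries). The pseudogene Gm18473, at 85.7 kb, had -1.34 ± 0.30 and did not pass (adjusted p = 0.11; -1.23 ± 0.31 and 0.098 with all libraries).

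Levels per kb of the called neighbours in the class where they were lower ran from 1.43 to 2.17 times background, leaving D1 SS replicate 1 aside. Ttc12 was at 5.59 times background in D2, against 1.51 times in the 7 D1 libraries and 1.31 times in D1 SS replicate 1. Gm4894 was at 2.85 times in D2, against 1.43 and 1.39 times. Sfxn1 was at 1.58 times in D2, against 5.35 and 50.1 times. Gm34557 was at 1.89 times in D2, against 4.66 and 15.4 times. Ankk1 was at 8.64 times in D2, against 2.17 and 9.3 times, so on this scale D1 SS replicate 1 stood above the D2 value. What transgene copies add to these values was not tested.

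**Figure D3:**
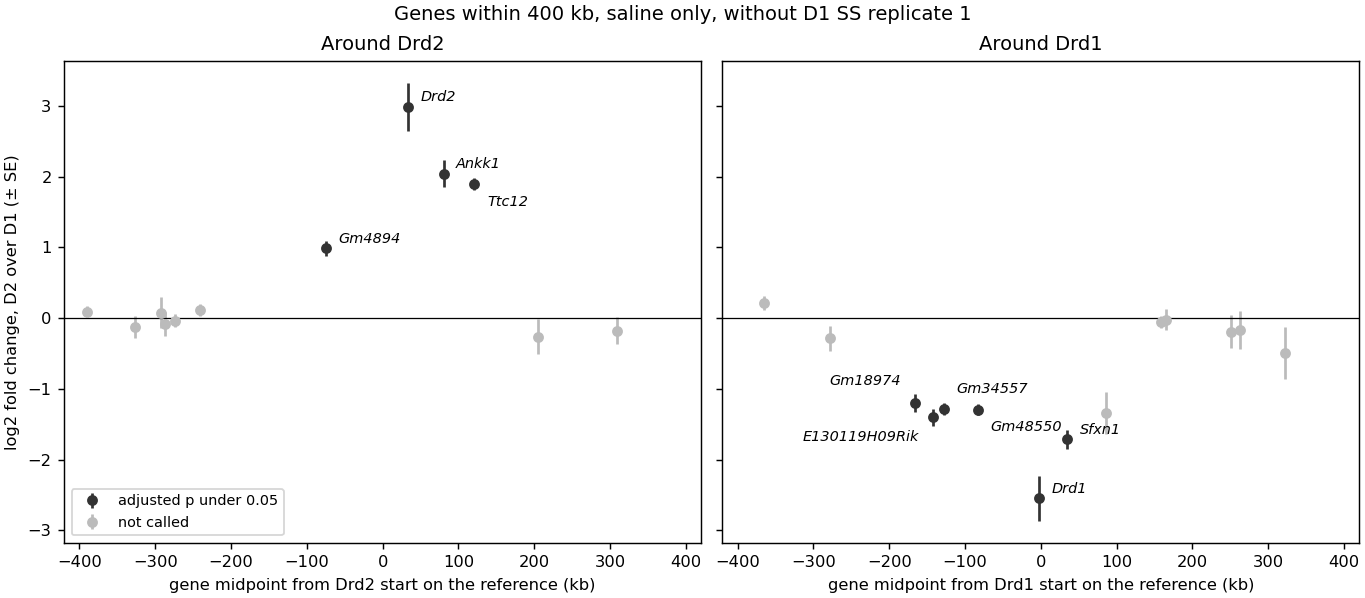
Log2 fold change of D2 over D1 (edgeR, bars are SE, without D1 SS replicate 1) for the 12 tested genes around Drd2 (left) and the 14 around Drd1 (right), against the distance of each gene's midpoint from the receptor gene's start in kb of the reference. Dark points are called; they lie between -75.1 and 121 kb at Drd2 and between -166 and 34.4 kb at Drd1, and the one grey point outside these runs below -1 is Gm18473.

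The other 2 genes called without D1 SS replicate 1 were Gm10493, lower in D2, and Gm11701, higher in D2, both processed pseudogenes with few counts. Gm10493 had 0.321, 0.481 and 0.7599 CPM as lowest, median and highest values in D2 libraries, against 1.05, 1.78 and 2.63 CPM in the 7 other D1 libraries and 9.39 CPM in D1 SS replicate 1. The groups did not overlap, at -1.81 ± 0.33 (adjusted p = 0.003; -2.31 ± 0.38 and 0.0004 with all libraries), but it overlaps another gene model, which makes its reads uncertain. Gm11701 had 1.76, 2.09 and 3.47 CPM as lowest, median and highest values in D2 libraries, against 0.875, 1.23 and 1.81 CPM in the 7 other D1 libraries and 0.202 CPM in D1 SS replicate 1. Here the groups overlapped, and the log2 fold change was 0.82 ± 0.17 (adjusted p = 0.020; 0.94 ± 0.18 and 0.011 with all libraries). The call was lost in the saline libraries fitted alone, without D1 SS replicate 1 (adjusted p = 0.39) and with it (0.49). With D1 SS replicate 1 kept it was also lost by total count alone (0.081) and without D2 SS replicate 3 or 6 (0.093 and 0.068).

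The 5 further calls, all lower in D2, were made with D1 SS replicate 1 and lost without it: Chrm4, Slc17a7, Ccn2, Lingo2 and Gm20642. Slc17a7, the vesicular glutamate transporter of cortical neurons, had 8.37, 10.9 and 11.97 CPM as lowest, median and highest values in D2 libraries, against 8.83, 11.03 and 28.3 CPM in the 7 other D1 libraries and 362 CPM in D1 SS replicate 1. The single library lay far above all others, and the log2 fold change was -0.48 ± 0.27 without it (adjusted p = 0.92) and -2.44 ± 0.50 with it (adjusted p = 0.023). Ccn2, a secreted matrix protein known from deep cortical neurons, had 0.804 to 1.497 CPM in D2 (median 1.25) against 0.992 to 2.59 CPM in the 7 other D1 libraries (median 1.605) and 56.97 CPM in D1 SS replicate 1, and its log2 fold change was -0.44 ± 0.26 without that library and -2.68 ± 0.55 with it. The deep-layer transcription factor gene Tbr1 had 6.73 to 8.65 CPM in D2 (median 7.502) against 5.78 to 11.2 CPM in the 7 other D1 libraries (median 8.32) and 53.03 CPM in D1 SS replicate 1 and was not called with or without it. Lingo2, a neuronal membrane protein, had 518 to 649 CPM in D2 (median 565) against 663 to 922 CPM in the 7 other D1 libraries (median 780.2) and 2326 CPM in D1 SS replicate 1 and -0.41 ± 0.09 without it (adjusted p = 0.14; -0.73 ± 0.15 and 0.030 with all libraries). Gm20642, antisense to Nrg3, had 7.93 to 11.1 CPM in D2 (median 9.55) against 9.43 to 18.2 CPM in the 7 other D1 libraries (median 13.5) and 147 CPM in D1 SS replicate 1 and -0.52 ± 0.18 without it (-1.67 ± 0.35 with all libraries).

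Marker lists of other cells were read as summed TMM-scaled CPM over their members. The TMM factor was 0.388 in D1 SS replicate 1 against 1.02 to 1.13 in D2 libraries, and a lower factor raises CPM. Sums of that library are therefore not shares of its counts and may rank differently by library total. The 9 cortical glutamatergic markers summed to 300.3 to 325 CPM in D2 libraries, against 299 to 347 CPM in the 7 other D1 libraries and 1129 CPM in D1 SS replicate 1. In that library 8 of the 9 stood at 2 or more times background, against 0 of 9 by the mean of D2 and 1 of 9 by the mean of the 7 D1 libraries. Over all genes tested the share was 54.8% in that library, 24.0% by the D2 mean and 26.2% by the mean of the 7 D1 libraries. The part of the cortical markers in the results that rest on that library was not tested. Oligodendrocyte markers summed to 243 to 298 CPM in D2, against 254 to 303 and 412 CPM. Astrocyte markers summed to 272 to 299 CPM in D2, against 261 to 310.0 and 849 CPM, of which the glutamate transporter gene Slc1a2 made up 785 CPM in the last. The D2 and D1 ranges overlapped in all 3 lists. Microglial markers summed to 163 to 184 CPM in D2, against 160 to 187 and 197 CPM. Endothelial markers summed to 354 to 381 CPM in D2, against 294 to 386 and 127 CPM, so D1 SS replicate 1 was the lowest there. These lists had median log2 fold changes of 0.12 and 0.08 (0.22 and 0.23 with all libraries) with no call. Without D1 SS replicate 1, at most 2 members of any of the 4 glial and vascular lists reached 2 times background by the mean of either class. The 11 interneuron markers summed to 305 to 345 CPM in D2, against 301 to 367 and 342 CPM, with 7 of 11 log2 fold changes above 0 and 4 below, with a median of 0.02 (0.08 with all libraries) and no call. Among them, Sst, the somatostatin precursor gene, had 2.47 to 9.63 CPM in D2 (median 4.34) against 6.75 to 18.6 CPM in the 7 other D1 libraries (median 12.4) and 54.95 CPM in D1 SS replicate 1 and -1.34 ± 0.39, which did not pass (adjusted p = 0.92; -1.85 ± 0.41 and 0.065 with all libraries). Chat, the acetylcholine-synthesising enzyme gene, had 0.07 ± 0.07 (0.18 ± 0.10 with all libraries).

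The 15 shared projection neuron markers, among them Ppp1r1b, which encodes DARPP-32, all stood at 2 or more times background in both classes. Of all genes tested, 24.0% did so in D2 and 26.2% in the 7 other D1 libraries. The summed level of the 15 was 3152 to 5301 CPM in D2, against 2352 to 8916 CPM in the 7 other D1 libraries and 33927 CPM in D1 SS replicate 1. The D1 libraries spread more widely than the D2 libraries and enclosed them. The list had 2 of 15 log2 fold changes above 0 and 13 below, with a median of -0.29 and no call, and its median was -0.84 with all libraries. Pde10a, the phosphodiesterase 10A gene, had 608 to 1113 CPM in D2 (median 848) against 429.9 to 1862 CPM in the 7 other D1 libraries (median 838) and 10416 CPM in D1 SS replicate 1, and Arpp21, a cyclic AMP-regulated phosphoprotein gene, had 201 to 349 CPM in D2 (median 259.9) against 142 to 597 CPM in the 7 other D1 libraries (median 285) and 3167 CPM in D1 SS replicate 1. Their log2 fold changes were -0.18 ± 0.35 and -0.29 ± 0.31 without that library and -1.33 ± 0.45 and -1.35 ± 0.41 with it.

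Among 13 dopamine, adenosine and muscarinic receptor genes, Drd2 was called higher and Drd1 lower, where 0.0117% and 0.0233% of all genes were, and the list had 6 of 13 log2 fold changes above 0 and 7 below, with a median of -0.03. With all libraries the median was -0.27, and Chrm4 was called lower as well. Among 8 opioid receptor and opioid peptide precursor genes, Pdyn was the only call, in either fit. Oprd1, the delta opioid receptor gene, had 30.2, 35.1 and 42.5 CPM as lowest, median and highest values in D2 libraries, against 21.5, 23.3 and 29.2 CPM in the 7 other D1 libraries and 40.3 CPM in D1 SS replicate 1. The D2 libraries lay above the 7 other D1 libraries, while D1 SS replicate 1 lay within the D2 range. Its log2 fold change of 0.54 ± 0.13 did not pass (adjusted p = 0.16; 0.44 ± 0.13 and 0.098 with all libraries), and with the background covariate and without D1 SS replicate 1 it was 0.56 ± 0.10 and passed (adjusted p = 0.003). Oprk1, the kappa opioid receptor gene, had 12.6 to 19.1 CPM in D2 (median 14.2) against 13.7 to 28.9 CPM in the 7 other D1 libraries (median 20.2) and 95.4 CPM in D1 SS replicate 1, and its log2 fold change of -0.44 ± 0.20 did not pass (-0.99 ± 0.26 with all libraries, adjusted p = 0.098). Among 14 other neuropeptide precursors Tac1 was the only call. Npy, the neuropeptide Y gene, had -0.31 ± 0.14, Adcyap1, the PACAP precursor gene, 0.17 ± 0.11 and Tac2, the neurokinin B precursor gene, 0.09 ± 0.11, and none passed. With all libraries these 3 had -0.54 ± 0.17, 0.23 ± 0.11 and 0.22 ± 0.15, and none passed.

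Lists of signalling genes, channels and transcription factors held no call, with or without D1 SS replicate 1, and their medians without it were within 0.2 of 0 on the log2 scale. The 30 genes of the cyclic AMP cascade had 5 of 30 log2 fold changes above 0 and 25 below, with a median of -0.14, against -0.60 with all libraries. Over all genes tested 51.5% were negative without D1 SS replicate 1 and 46.3% with it. With the background covariate and without that library, the cyclic AMP list had 22 of 30 below 0 and a median of -0.07. Other lists leaned the same way. Without that library, 24 of 28 potassium channel genes, 21 of 24 immediate early genes and 22 of 27 striatal transcription factors were below 0. So were 18 of 24 glutamate receptor, 11 of 14 GABA receptor, 26 of 35 axon guidance and 11 of 16 RGS genes. With the covariate as well, the medians of these lists ran from -0.10 to -0.02. There 20 of 24 immediate early and 16 of 24 glutamate receptor genes were below 0. The adenylyl cyclase gene Adcy8 had 0.04, the inhibitory G protein subunit gene Gnai1 -0.14 and the phosphodiesterase gene Pde4a -0.25 (0.05, -0.37 and -1.08 with all libraries). The 16 RGS genes, which end G protein signals, had a median of -0.07, and Rgs4 had 7.74 to 14.002 CPM in D2 (median 10.3) against 10.97 to 24.4 CPM in the 7 other D1 libraries (median 15.9) and 51.4 CPM in D1 SS replicate 1, a difference of -0.64 ± 0.27 that did not pass (-0.97 ± 0.29 with all libraries). Medians were -0.09 for 24 glutamate receptor genes, -0.11 for 14 GABA receptor genes and -0.06 for 35 axon guidance genes. They were -0.09 for 27 striatal transcription factors, -0.19 for 24 immediate early genes and -0.18 for 28 potassium channel genes. With all libraries these medians ran from -0.34 to -0.80.

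Within these lists the members with the smallest p values did not pass either. Grin2b, an NMDA receptor subunit gene, had 495 to 742 CPM in D2 (median 589) against 403 to 1167 CPM in the 7 other D1 libraries (median 643) and 4774 CPM in D1 SS replicate 1, and its log2 fold change was -0.17 ± 0.24 without that library and -0.96 ± 0.32 with it. Plxnd1, a semaphorin receptor gene, had 23.6 to 38.2 CPM in D2 (median 28.6) against 28.5 to 55.1 CPM in the 7 other D1 libraries (median 35.7) and 174 CPM in D1 SS replicate 1, at -0.36 ± 0.20 without that library and -0.89 ± 0.26 with it. The homeobox gene Pbx3 had -0.34 ± 0.18 and Meis1 0.04 ± 0.05 (-0.86 ± 0.24 and 0.14 ± 0.08 with all libraries). Of the immediate early genes, Homer1, a synaptic scaffold gene, had 80.8 to 131 CPM in D2 (median 109) against 69.3 to 205 CPM in the 7 other D1 libraries (median 115) and 939.8 CPM in D1 SS replicate 1 and -0.25 ± 0.23, Nr4a2, a nuclear receptor gene, -0.10 ± 0.10, and Dusp1, a kinase phosphatase gene, 0.10 ± 0.06. With all libraries these 3 had -1.09 ± 0.32, -0.92 ± 0.26 and 0.12 ± 0.07. The potassium channel genes Kcnk2, Kcnj3 and Kcnc2 had 0.13 ± 0.06, -0.18 ± 0.07 and -0.18 ± 0.07 (0.02 ± 0.09, -0.81 ± 0.20 and -0.67 ± 0.18 with all libraries).

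**Figure D4:**
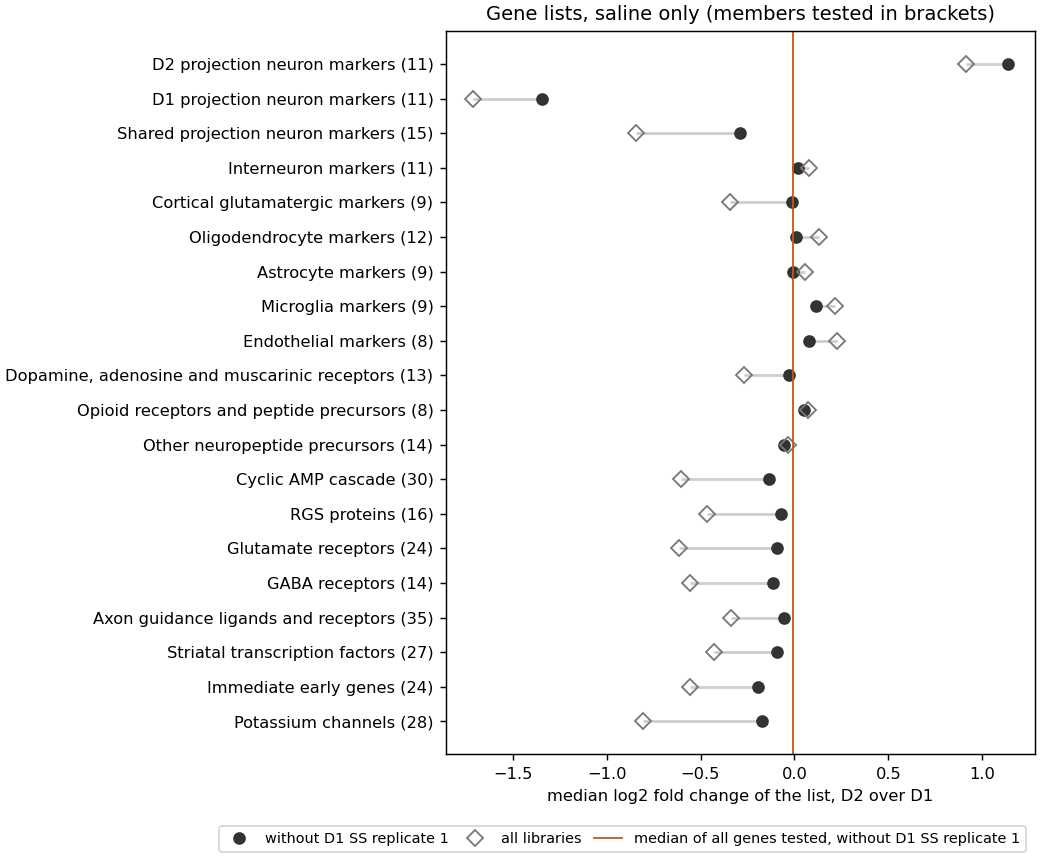
Median log2 fold change of D2 over D1 for 20 gene lists, without D1 SS replicate 1 (filled) and with all libraries (open); the line is the median of all genes tested without that library. The D2 and D1 marker lists stand at 1.14 and -1.34 without that library, while the potassium channel list is at -0.18 without and at -0.80 with it.

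The same difference between D2 and D1 was measured in libraries of other mice given morphine, which share no library with the saline comparison. Saline values set beside those of the other treatments are without D1 SS replicate 1 unless stated. Of the 15 genes, 14 were called in the mean of the SM, MS and MM differences, where 63 of 42870 genes were called (0.147%), and 14 had the same sign in each of the 3. In SM 13 of the 15 were called (0.0303% of all genes), in MS 13 (0.0746%) and in MM 14 (0.056%). The exception in sign was Gm11701, at 0.82 ± 0.17 in saline and -0.11 ± 0.11 in the mean of the others. Drd2 had 2.99 ± 0.34 in saline and 3.55 ± 0.20 in the others, Drd1 -2.54 ± 0.32 and -2.51 ± 0.21, and Pdyn -2.02 ± 0.28 and -2.36 ± 0.17. Ttc12 had 1.90 ± 0.09 and 1.79 ± 0.08, and Gm34557 -1.28 ± 0.08 and -1.44 ± 0.05. Tested as a difference between saline and the mean of the other treatments, no gene was called by edgeR, the one tool run for it. At an unadjusted p under 0.05 there were 1603 of 42833 genes without D1 SS replicate 1 and 6887 with it.

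All 63 genes called in the other treatments had the same sign under saline, with and without D1 SS replicate 1. The share of all genes tested that agree in sign is not given here, for this count or for the 14 above. Several of the 63 were not called under saline without D1 SS replicate 1, of which Chrm4 and Lingo2 were called with all libraries. On the D2 side these were Penk (1.19 ± 0.39 in saline and 1.53 ± 0.21 in the others), Adora2a (1.14 ± 0.28 and 1.58 ± 0.16), Gpr6 (1.20 ± 0.33 and 1.53 ± 0.18) and Oprd1 (0.54 ± 0.13 and 0.58 ± 0.08). P2ry1, a purinergic receptor gene that overlaps an antisense model, had 5.48 to 8.902 CPM in D2 (median 6.73) against 3.41 to 5.13 CPM in the 7 other D1 libraries (median 4.08) and 4.24 CPM in D1 SS replicate 1, at 0.71 ± 0.18 in saline (0.71 ± 0.17 with all libraries) and 0.85 ± 0.10 in the others. Ndnf, a secreted neurotrophic factor gene, had 26.8 to 33.6 CPM in D2 (median 30.2) against 16.7 to 25.9 CPM in the 7 other D1 libraries (median 20.9) and 9.496 CPM in D1 SS replicate 1, at 0.47 ± 0.13 (0.58 ± 0.14 with all libraries) and 0.68 ± 0.08. Sp9 had 0.24 ± 0.17 and 0.58 ± 0.09. On the D1 side, Chrm4 had -1.71 ± 0.41 in saline and -1.62 ± 0.24 in the others, Isl1 -0.52 ± 0.17 and -0.63 ± 0.10, and Dlk1 -1.18 ± 0.40 and -1.11 ± 0.21. Sstr4, a somatostatin receptor gene, had 1.06 to 2.19 CPM in D2 (median 1.72) against 2.16 to 5.19 CPM in the 7 other D1 libraries (median 2.94) and 16.4 CPM in D1 SS replicate 1, at -0.90 ± 0.26 (-1.42 ± 0.32 with all libraries) and -1.16 ± 0.18. Nefl, the neurofilament light chain gene, lies within the span of Nefm on the other strand, which makes its reads uncertain. Nefl had -0.57 ± 0.27 in saline (-0.94 ± 0.29 with all libraries) and -0.89 ± 0.17 in the others. Lingo2 had -0.41 ± 0.09 in saline and -0.41 ± 0.09 in the others.

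**Figure D5:**
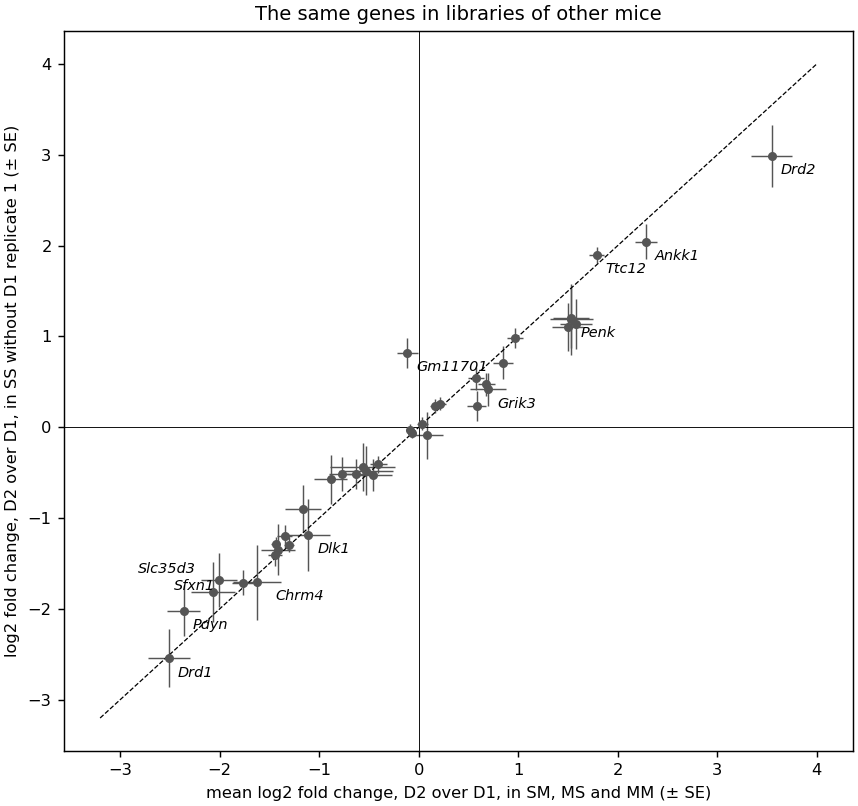
Log2 fold change of D2 over D1 under saline without D1 SS replicate 1 (vertical) against the mean of the 3 treatments with morphine (horizontal), for the called genes and the D2 and D1 markers; bars are SE and the dashed line marks equal values. Drd2 lies at 2.99 and 3.55 and Drd1 at -2.54 and -2.51, and Gm11701, at 0.82 and -0.11, lies off the line.

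With the background density of each library as a covariate and without D1 SS replicate 1, 29 genes were called (0.0677%), 15 higher and 14 lower in D2, and these held all 15 of the calls made without the covariate. Of the 29, 24 were also called in the other treatments. Those added included Adora2a, Gpr6, Oprd1, P2ry1 and Chrm4, all described above, and an identifier with no symbol, ENSMUSG00000118401.1, at 1.20 ± 0.17. After subtraction of the background expected from a gene's length, the log2 ratio of group means without D1 SS replicate 1 was 3.67 for Drd2, 3.22 for Ttc12 and 1.44 for Adora2a. It was -2.88 for Drd1, -2.73 for Pdyn and -2.85 for Sfxn1, with no test. Before it, the log2 fold changes of these 6 were 2.99, 1.90, 1.14, -2.54, -2.02 and -1.71.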

How the data were processed

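Of 61 RNA libraries from sorted nuclei, the 15 saline libraries were compared here. The authors named featureCounts, DESeq2 and the build mm10, per the submitters' processing notes. The kit is stranded, per the labels' protocols. Aligner, tool versions and strand choice in counting: not given in the sources used here. Counts as deposited were used for every test. The deposited FPKM values served only to recover gene lengths, which equalled the whole span in GENCODE M21 for 54281 of 54281 identifiers within a relative tolerance of 1e-06. Of 55401 identifiers 260 had no symbol.

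Counts of all 61 libraries in 8 groups were fitted with edgeR 4.0.16 in R 4.3.3 (TMM, filterByExpr by group, robust quasi-likelihood, two-sided), and refitted with 60 libraries without D1 SS replicate 1. A call is an adjusted p under 0.05 over all genes tested. CPM are scaled by the TMM factors of the 61-library fit. The common biological coefficient of variation was 0.231 with that library and 0.182 without. Alternatives were DESeq2 1.42.0, limma 3.58.1 voom, other scalings and filters, a background covariate, a replicate block and left-out libraries. Library measures were tested by exact permutation, two-sided, in scipy 1.17.1. Ratios of 2 genes within a library use counts plus 0.5.

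The members and gene lists were chosen with earlier results of these data known. Named genes are every called gene, all D1 and D2 markers, called members of other lists or else 2 per direction by p, 10 per direction by p among genes called in the other treatments with the same sign in saline and a mean log2 CPM of 1 or more, and genes within 400 kb of Drd1 or Drd2. Some genes that meet it are not reported here.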

Additional observations from a re-analysis of the deposited data

Results flagged for a closer look

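Among the 33 genes called or listed as class markers and 4 library measures, 74 sets of libraries were screened for a sample whose gap to its nearest neighbour took up most of the group's range, by Dixon's criterion at 95%. It marked 19 values, 16 of them in D1 SS replicate 1. Of the genes screened, 5 were called only with that library, and all its CPM share a TMM factor. These flags are therefore not independent and have no chance rate to be set against. In D1 SS replicate 1 the TMM factor was the lowest of 8, at 0.388. TMM-scaled CPM were the highest of 8 D1 values for Drd1 (269), Drd2 (269.5), Sfxn1 (269), Tac1 (138), Chrm4 (87.6), Slc35d3 (31.7) and Six3 (56.6). The same held for Slc17a7 (362), Ccn2 (56.97), Lingo2 (2326), Grik3 (2292), Gm20642 (147) and Gm10493 (9.39). Ttc12 (9.496) and Upb1 (6.97) were its lowest of 8. In D2 libraries, replicate 4 had the highest mitochondrial share of 7, 0.0207%, and the lowest Ccn2, 0.804 CPM. D2 replicate 5 had the lowest Upb1, 18.7 CPM.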

How the results depend on the processing

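With all 15 saline libraries, 20 genes were called. Leaving out each library in turn gave 15 to 7174, with 6023, 31, 7174 and 3615 for D1 replicates 2, 6, 7 and 8. The saline libraries alone gave 11, DESeq2 size factors 8241, DESeq2 9812 (501 higher, 9311 lower), limma voom 31 and the background covariate 32. Without D1 SS replicate 1 the count was 15, and size factors, DESeq2 or no filter gave 14 to 19, while voom gave 28 (14 higher, 14 lower). Replicate numbers do not pair mice, since D2 and D1 came from different lines: the correlation of same-numbered deviations ran from -0.41 to 0.53 over 7 pairs, and 1 D2 library correlated best with its own number. With the replicate block 7 genes were called, and 27 without D1 SS replicate 1, an alternative chosen after seeing the data. With all 15 saline libraries the block lost 13 of the 20 calls. Among them were Drd2 and Pdyn (edgeR, adjusted p = 0.052 each), Slc35d3 (0.10) and Tac1 (0.53), while Drd1 kept its call (0.043). The background covariate gave 28, 84 and 75 calls in SM, MS and MM, against 13, 32 and 24 without it, and 243 in their mean, against 63. The cause of these shifts was not tested.

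Of 517 results of the 20 called genes under an alternative, 0 reversed and 80 lost the call. The 15 saline libraries fitted alone lost Tac1, Gm10493 and Gm4894 (adjusted p = 0.12, 0.16 and 0.20) beside Chrm4, Gm11701 and the other 4 genes that lost the call without D1 SS replicate 1. Among 13 markers not called, 20 of 337 reversed. Ebf1, at 0.015 with all libraries, had -0.026, -0.012 and -0.006 without D1 replicates 1, 4 or 5, -0.025 in the 14 saline libraries, -0.077 with size factors, -0.075 in DESeq2, -0.011 in voom, -0.045 and -0.038 with the covariate, the second without D1 SS replicate 1, and -0.21 after background subtraction. Zfp521 had 0.12 by total count, and Six3 0.053 and 0.012 with the covariate. Grik3, at -0.64, had 0.42 without D1 SS replicate 1, 0.41 in the 14 libraries, 0.060 by total count, 0.46 in voom, 0.21 and 0.44 with the covariate and 0.048 with the replicate block. For genes near the background level few counts exceed it, which limits what these depths can show. Over single left-out libraries Ebf1 ran from -0.026 to 0.0385 and Grik3 from -0.769 to 0.417.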
